A study of Mus musculus with 18 samples.

Results

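The genes described here make polyamines or control their level: Odc1, Srm, Sms and Amd1 for synthesis, the antizyme inhibitor gene Azin1, the antizyme genes Oaz1 and Oaz2, and the catabolic gene Sat1. They are 8 of 21887 protein-coding genes, named as a pathway list. Binding of the transcription factor MYC at them was read from 9 MYC chromatin immunoprecipitation (ChIP-seq) libraries of frozen mouse liver tumours, each with its own list of peaks. A peak was assigned to a gene when its summit, the base with the strongest enrichment, lay inside the RefSeq gene span or within 1 kb of either end.

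All tumours came from FVB mice that carried LAP-tta and TRE-MYC, in which the liver promoter LAP drives a transactivator that switches on a MYC transgene once doxycycline water is withdrawn. The groups differed in Arid1a, whose protein is part of the SWI/SNF complexes that remodel chromatin. The Homo mice were Arid1afl/fl with Alb-cre, a Cre driven by the albumin promoter of hepatocytes, and were about 100 days old. The Het mice were Arid1afl/+ with the same Cre and were about 70 days old. The WT mice had floxed alleles (Arid1aflfl) without Cre and were about 55 days old. Each group had 3 MYC libraries, and age changed with genotype in every pair of groups. Cre separated Homo and Het from WT, and was shared by Homo and Het. The parts of age in any difference, and of Cre in a difference from WT, cannot be told apart from that of Arid1a. All 3 groups carried the MYC transgene, so there was no group without it. Peaks carry no measure of RNA, so the labelled tissue was not checked by expression markers.

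ODC1 makes putrescine from ornithine, and AMD1 makes the decarboxylated S-adenosylmethionine that SRM and SMS use to turn putrescine into spermidine and spermidine into spermine. Antizymes bind ODC1 and send it to the proteasome. AZIN1 resembles ODC1 but has no such activity, and it ties up antizyme. SAT1 acetylates spermidine and spermine for export or breakdown. Odc1 is among the earliest known targets of MYC, which binds DNA with MAX at E-boxes, above all CACGTG.

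The lists differed widely in length. They held 112, 51 and 303 peaks in Homo, 1713, 1869 and 378 in Het, and 92, 1567 and 4291 in WT, in the order of the replicate numbers. Homo replicate 2 and WT replicate 1 stood apart: 64.7% and 58.7% of their peaks were assigned to a gene by the rule above, against 79.1% to 88.6% in the other 7 libraries. The gap was wider for peaks within 1 kb of a gene end, at 17.6% and 15.2% against 43.9% to 64.4%. Its cause was not tested. MYC libraries held between 7.80 and 15.2 reads per kb of genome, and input libraries between 3.37 and 6.27, as solved from the deposited peak values.

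Promoter sequences bear on where these peaks lie, and RefSeq windows (GRCm38.p6, the assembly behind mm10) were at hand for 6 of the 8 genes, giving 7 windows. The genes without a window were Srm and Azin1. The stretches below run 5′ to 3′ on the strand of the gene and end at the base before an annotated start. For Odc1 this is the low-coordinate end of the gene span, which lies upstream of the start at 17544873 on which the RefSeq window was built. Capitals mark the E-box CACGTG and its variant CACGCG, read on both strands; these motifs do not overlap each other here. The Odc1 stretch (chr12:17544623-17544807, + strand) lies under and beside the outer Odc1 peak described further on. Sms has a start with the E-box but no listed peak over it (chrX:157492288-157492537, − strand), and a start further inside the gene, whose upstream stretch was met by the only Sms peak (chrX:157491369-157491618, − strand). The Oaz1 stretch (chr10:80826406-80826655, + strand) is shown as that of a gene with no peak.
Odc1: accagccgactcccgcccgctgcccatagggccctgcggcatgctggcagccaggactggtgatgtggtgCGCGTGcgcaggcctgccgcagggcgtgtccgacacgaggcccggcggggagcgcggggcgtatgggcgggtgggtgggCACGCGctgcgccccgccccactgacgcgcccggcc
Sms outer start: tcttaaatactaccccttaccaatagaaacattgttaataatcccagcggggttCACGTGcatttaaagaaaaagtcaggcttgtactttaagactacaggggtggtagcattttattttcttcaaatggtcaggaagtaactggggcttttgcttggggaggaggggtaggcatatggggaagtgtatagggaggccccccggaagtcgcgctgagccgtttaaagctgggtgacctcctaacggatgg
Sms inner start: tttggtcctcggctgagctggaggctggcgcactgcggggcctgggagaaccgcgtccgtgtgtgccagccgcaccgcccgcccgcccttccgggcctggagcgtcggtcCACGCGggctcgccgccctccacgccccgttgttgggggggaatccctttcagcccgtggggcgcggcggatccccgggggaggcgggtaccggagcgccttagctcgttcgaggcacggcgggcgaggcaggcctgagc
Oaz1: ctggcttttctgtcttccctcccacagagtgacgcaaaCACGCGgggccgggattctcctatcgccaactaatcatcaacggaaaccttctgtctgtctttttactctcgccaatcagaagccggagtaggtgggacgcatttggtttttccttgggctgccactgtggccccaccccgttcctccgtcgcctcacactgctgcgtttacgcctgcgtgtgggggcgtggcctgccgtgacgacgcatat
CACGTG was present in 1 of the 7 windows of 300 bases, that of the outer Sms start, and in 7.15% of all 32851 RefSeq promoter windows (7.84% of the 21263 of protein-coding genes). CACGCG was present in 3 of the 7, namely Odc1 with 2 copies, the inner Sms start and Oaz1, and in 9.27% of all windows (12.1% of those of protein-coding genes). The Odc1 stretch was 77.8% G and C and the Oaz1 stretch 58%. The Odc1 window ran from 17544623 to 17544922 and ended before the inner Odc1 summits described further on (17545180 to 17545256). The sequence at those summits, and at the peaks of Srm, Amd1 and Azin1, was therefore not searched for either motif. These are matches of letters and do not show a binding site. The Odc1 copy nearer the 5′ end of the printed stretch lay within the outer peak of all 5 libraries that listed it, and the copy nearer the 3′ end lay within no listed peak. That 5′ copy, at 17544693 to 17544698, lay downstream of every outer summit (17544572 to 17544631). Only the outer summit of Het replicate 2, at 17544631, fell inside the printed stretch.

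MYC peaks lay at the synthesis genes and not at the antizyme or catabolic genes. Srm had a peak in 8 of 9 libraries, Odc1 in 7, Amd1 in 4 and Sms in 1. Azin1 had one in 2 libraries, and Oaz1, Oaz2 and Sat1 had none in any. In all, 5 of the 8 genes had a peak in at least 1 library, as did 19.1% of all protein-coding genes. A peak in at least 7 libraries was found for 0.315% of all genes, and in at least 8 libraries for 0.155%. Counted as gene and library pairs, the synthesis genes had a peak in 20 of 36, Azin1 in 2 of 9, and the antizyme and catabolic genes in 0 of 27, against 4.83% of the 196983 pairs of all genes. At that share, 0 of 27 is near the background. Most genes had no peak: even in the longest list, WT replicate 3, a peak was found for 17.9% of genes, and the absence of peaks at 3 genes does not set them apart. Of the 4 synthesis genes, 2, 0 and 2 had a peak in Homo replicates 1 to 3, 3, 3 and 2 in Het replicates 1 to 3, and 1, 3 and 4 in WT replicates 1 to 3. The median protein-coding gene had a peak in 0 libraries.

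**Figure D1:**
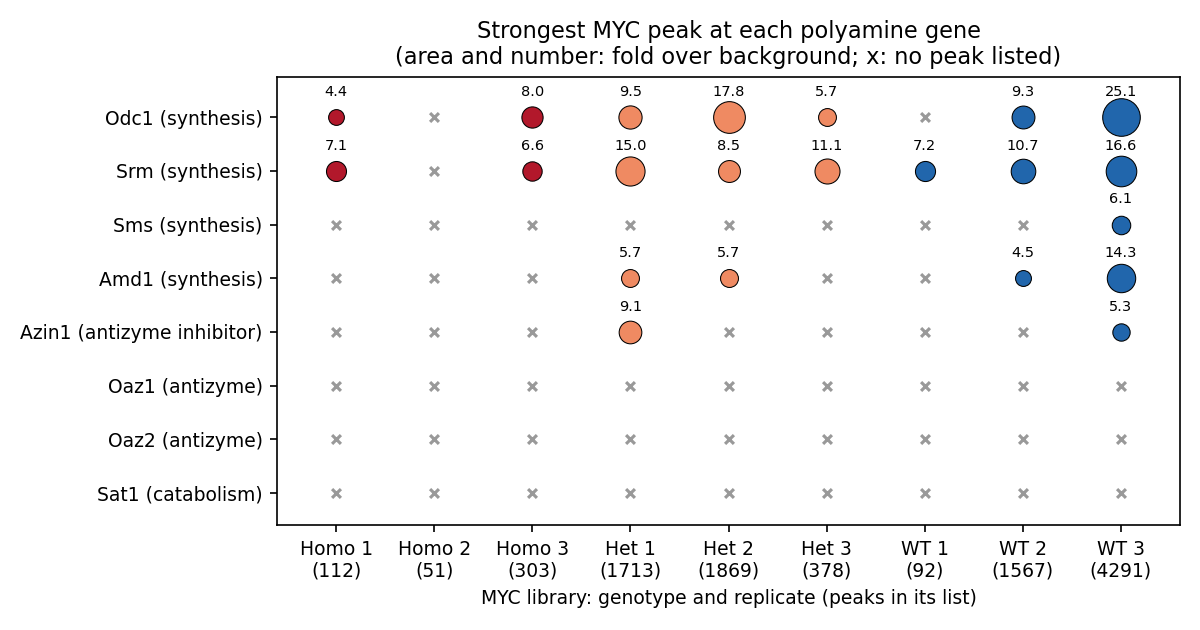
Fold over background of the strongest listed MYC peak at each gene (rows, with the role of each gene) in each MYC library (columns, with the number of peaks in its list). Circle area and the number above it give the fold, and a cross means that no peak was listed. Odc1 and Srm fill most columns, while Oaz1, Oaz2 and Sat1 have crosses throughout.

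Odc1, the gene of the rate-limiting enzyme, spans 17544808 to 17551502 on chromosome 12 and carried peaks at 2 positions. An inner peak had its summit 372 to 448 bp inside the low-coordinate end of the span, which is 307 to 383 bp downstream of the RefSeq start at 17544873. It was present in all 7 libraries with an Odc1 peak, and its summits lay within 76 bp of each other. An outer peak had its summit at -236 to -177 bp, outside the span, and was listed in 5 libraries: Homo replicate 3, Het replicates 1 and 2, and WT replicates 2 and 3. The summits of the pair were 581 to 656 bp apart, and 127 to 318 bp between the peaks belonged to neither.

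The authors' fold of the inner Odc1 peak was 4.42 and 7.98 in Homo replicates 1 and 3, 9.54, 17.8 and 5.66 in Het replicates 1 to 3, and 9.27 and 25.1 in WT replicates 2 and 3. WT replicate 3 was the highest and Homo replicate 1 the lowest, with Het values overlapping those of both other genotypes. In WT replicate 3 this peak ranked 19 of 4291 by p, and in Het replicate 2 it ranked 34 of 1869. It ranked 90 of 112 in Homo replicate 1 and 74 of 303 in Homo replicate 3. Ranks from lists of such unequal length show no change between genotypes.

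The reads behind these folds were solved from the deposited fold and p of each peak. The inner Odc1 summit was covered by 60 and 82 MYC reads in Homo replicates 1 and 3, 130, 82 and 59 in Het replicates 1 to 3, and 79 and 124 in WT replicates 2 and 3. The local background on the same scale was 11.8 and 7.15 reads in Homo, 10.5, 2.57 and 8.65 in Het, and 6.57 and 3.06 in WT. The high fold of WT replicate 3 and of Het replicate 2 thus went with the lowest local backgrounds of the 7. Divided by the mean coverage of each MYC library, the summit reads were 34.4 and 33.5 times the mean in Homo, 43.9, 52.9 and 35.8 times in Het, and 31.4 and 57.8 times in WT. On this depth-scaled measure both Homo values lay inside the WT range, and every Het value was above both Homo values; this covers only libraries that listed the peak and was not tested.

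Srm, the gene of spermidine synthase, spans 148591513 to 148594619 on chromosome 4 and showed the same arrangement. Its inner summits lay 345 to 434 bp inside the low-coordinate end in 8 libraries, within 89 bp of each other, and its outer summits at -229 to -181 bp, outside that end, in 3 libraries (Het replicates 1 and 2 and WT replicate 2). Where both were listed, their summits were 600 to 655 bp apart. WT replicate 3 instead listed a single peak of 1015 bp that covered both positions, the 20th longest of its 4291 peaks, with a median length of 294 bp in that list. None of the Srm peaks was assigned to any other protein-coding gene.

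**Figure D2:**
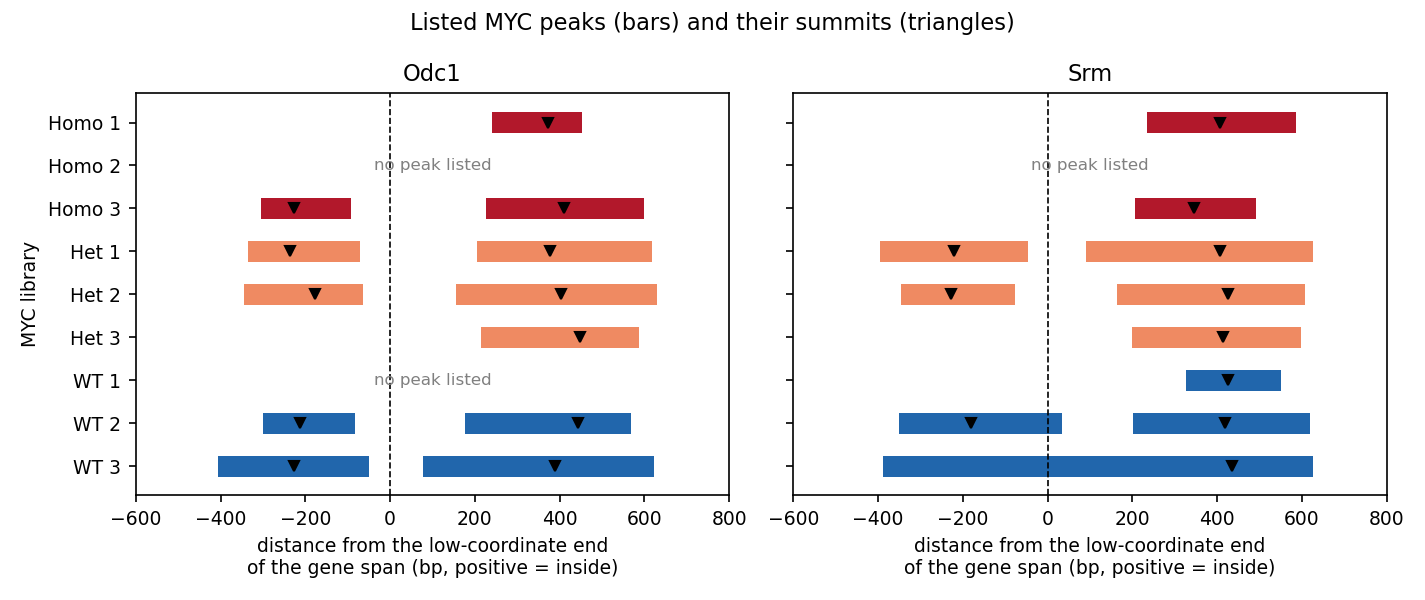
Listed MYC peaks (bars) and their summits (triangles) at Odc1 and Srm, by library, against the distance in bp from the low-coordinate end of the gene span (dashed line, positive values inside the gene). Inner summits gather 345 to 448 bp inside both genes, and outer summits at -236 to -177 bp.

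The authors' fold of the inner Srm peak was 7.11 and 6.64 in Homo replicates 1 and 3, 15.0, 8.51 and 11.1 in Het replicates 1 to 3, and 7.16, 10.7 and 16.6 in WT replicates 1 to 3. Both Homo values were below all Het and WT values, though the higher of them was close to that of WT replicate 1. By p the peak ranked 39 of 112 and 125 of 303 in Homo replicates 1 and 3. It ranked 42 of 1713, 206 of 1869 and 34 of 378 in Het replicates 1 to 3. In WT replicates 1 to 3 the ranks were 64 of 92, 125 of 1567 and 89 of 4291. The summit held 52 and 81 MYC reads in Homo, 130, 78 and 61 in Het, and 67, 77 and 94 in WT, so that reads overlapped between genotypes. The exact 95% Poisson interval was 38.8 to 68.2 reads for the lowest value, in Homo replicate 1, and 109 to 154 for the highest, in Het replicate 1. These reads and intervals are not scaled to depth, and mean MYC coverage was 8.69 reads per kb in Homo replicate 1 and 15.2 in Het replicate 1. Scaled to the mean coverage of each MYC library, the summit stood at 29.8 and 33.1 times the mean in Homo, 43.9, 50.3 and 37.0 times in Het, and 26.6, 30.6 and 43.8 times in WT. The Homo values again lay inside the WT range and below every Het value, which was likewise not tested. Local background was 5.30 and 9.16 reads in Homo, 5.39, 7.27 and 3.53 in Het, and 6.20, 5.21 and 3.82 in WT.

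**Figure D3:**
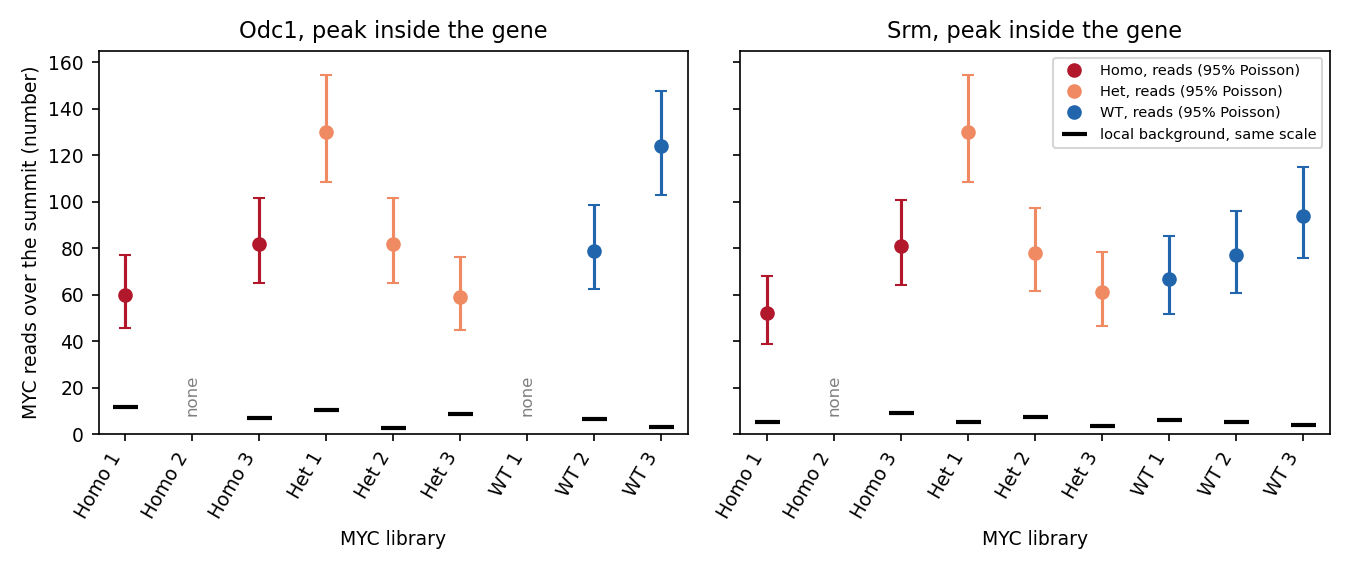
MYC reads over the summit of the inner peak at Odc1 and Srm in each library, with exact 95% Poisson intervals, and the local background on the same scale (black dashes). The reads run from 52 to 130 in both genes together and overlap between genotypes, and the backgrounds from 2.57 to 11.8. Reads are not scaled to the depth of each library, so their overlap is no comparison of genotypes.

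Within each library the inner peak of each Odc1 and Srm pair had the higher fold and more summit reads. Divided by local background, the outer Odc1 summit was slightly higher in Homo replicate 3 (12.54 against 11.47) and Het replicate 1 (12.53 against 12.39). The inner summit was higher in the other pairs. For Odc1 the inner peak had 1.55 times the summit reads of the outer peak in Homo replicate 3, 1.38 and 1.95 times in Het replicates 1 and 2, and 1.39 and 1.72 times in WT replicates 2 and 3. The ratio for Srm was 1.59 and 1.20 in Het replicates 1 and 2 and 1.51 in WT replicate 2. A gene with more than 1 peak was uncommon: in Homo replicate 3 there were 6, in Het replicates 1 and 2 there were 94 and 111, and in WT replicates 2 and 3 there were 73 and 447. Of all genes these are 0.0274%, 0.429%, 0.507%, 0.334% and 2.04%. Of the genes with a peak in the same library they are 2.16%, 5.77%, 6.30%, 5.01% and 11.4%. The closest summits of such genes were spaced 1092, 795, 932, 836 and 1025 bp apart at the median, in that order of libraries. The spacing range of Odc1 and Srm (581 to 656 bp) held 0, 1, 5, 2 and 32 genes other than these.

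The presence of a peak at Odc1 and Srm did not separate the genotypes. Odc1 had one in 2 of 3 Homo, 3 of 3 Het and 2 of 3 WT libraries, and Srm in 2 of 3, 3 of 3 and 3 of 3. Among all genes, at least 2 of 3 Homo libraries had a peak for 0.384%, 3 of 3 Het libraries for 1.13%, at least 2 of 3 WT libraries for 6.2% and 3 of 3 WT libraries for 0.233%. A two-sided exact permutation test over libraries gave p = 1 for both genes in the 3 pairs of genotypes (adjusted p = 1 over all 21887 genes). With 3 libraries against 3 the smallest possible p is 0.1, so no gene could pass: 0 of 21887 genes had an unadjusted p under 0.05 in this test. Where a library lacked the peak, its whole list was short. Homo replicate 2 had a peak at 0.16% of all genes and WT replicate 1 at 0.238%, the lowest of the 9. In Homo replicate 2 the weakest listed peak had a fold of 4.66, and in WT replicate 1 of 3.69, both below the fold of the inner Srm peak in every library that listed it. The lowest inner Odc1 fold, 4.42 in Homo replicate 1, was below the first of these values. By p the order differed. That peak had a −log10 p of 10.5, while the lowest listed was 9.08 in Homo replicate 2 and 8.23 in WT replicate 1. The peak threshold is not known, so these lowest values do not show whether a missing peak could have been listed.

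Amd1 (chromosome 10, 40287458 to 40302188) had peaks in 0 of 3 Homo, 2 of 3 Het and 2 of 3 WT libraries. Homo minus WT and Homo minus Het each gave p = 0.4 in the two-sided exact permutation test (adjusted p = 1). The main Amd1 summit lay 587 to 631 bp downstream of the start. Its fold was 5.68 and 5.71 in Het replicates 1 and 2, against 4.48 and 14.3 in WT replicates 2 and 3. By fold, WT replicate 3 stood far above the other libraries. By p the summit ranked 347 of 4291 there, and 1330 of 1713, 1375 of 1869 and 1476 of 1567 in the others, lists of unequal length. Its reads were 59 and 37 in Het replicates 1 and 2, and 37 and 59 in WT replicates 2 and 3. Scaled to mean coverage, these were 19.9 and 23.8 times the mean in Het, and 14.7 and 27.5 times in WT. The high fold of WT replicate 3 went with a local background of 2.29 reads, against at least 4.71 in the others. The 2 WT libraries had a further weak peak 1338 and 1373 bp downstream of the start, with folds of 4.36 and 5.33. The 4 libraries with an Amd1 peak were those with the most genes bound: 0.461%, 0.16% and 1.27% of all genes had a peak in Homo replicates 1 to 3, 7.44%, 8.05% and 1.33% in Het replicates 1 to 3, and 0.238%, 6.66% and 17.9% in WT replicates 1 to 3. Among all genes, 5.31% had a peak in at least 2 of 3 Het libraries. The part of list length and depth in the absence of Amd1 from Homo was not tested. With a −log10 p of at least 10 required and no scaling, Amd1 had a peak in 2 libraries, Het replicate 2 and WT replicate 3. With all libraries also scaled down to the depth of the shallowest input, it had a peak in 1 library, WT replicate 3.

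Sms, the spermine synthase gene on chromosome X (157443851 to 157492287), had a peak in WT replicate 3 alone, with 23 reads over a background of 2.15 (fold 6.07, rank 3685 of 4291). Its summit lay 634 bp downstream of the outer Sms start and 285 bp upstream of the inner start, and the peak reached into the inner promoter stretch printed above. The CACGCG of that stretch lay outside the peak, 24 bp from it. No listed peak met the outer stretch with CACGTG. Azin1 (chromosome 15, 38487430 to 38519294) had a peak just beyond the high-coordinate end of its span in Het replicate 1 and WT replicate 3, with summits 219 and 251 bp outside it. The summits were 32 bp apart, with folds of 9.10 in Het and 5.33 in WT and 78 and 61 reads. Local background was 5.46 reads in Het replicate 1 and 9.85 in WT replicate 3. Scaled to the mean coverage of each library, the summits stood at 26.4 and 28.4 times the mean.

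Oaz1, Oaz2 and Sat1 had no peak by the rule in any library, nor within 5 kb. The nearest summit to Oaz1 (chromosome 10, 80826656 to 80829290) lay 14860 bp away, in Het replicate 1. For Oaz2 (chromosome 9, 65676548 to 65690300) it was 45643 bp away, in WT replicate 3. For Sat1 (chromosome X, 155213126 to 155216449) it was 2275204 bp away, also in WT replicate 3. Chromosome X holds Sms and Sat1. In WT replicate 3, the longest list, 27 of 966 protein-coding X genes had a peak (2.80%), against 3880 of 20665 autosomal genes (18.8%). An absent peak says only that the site did not pass the peak caller in that library.

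**Figure D4:**
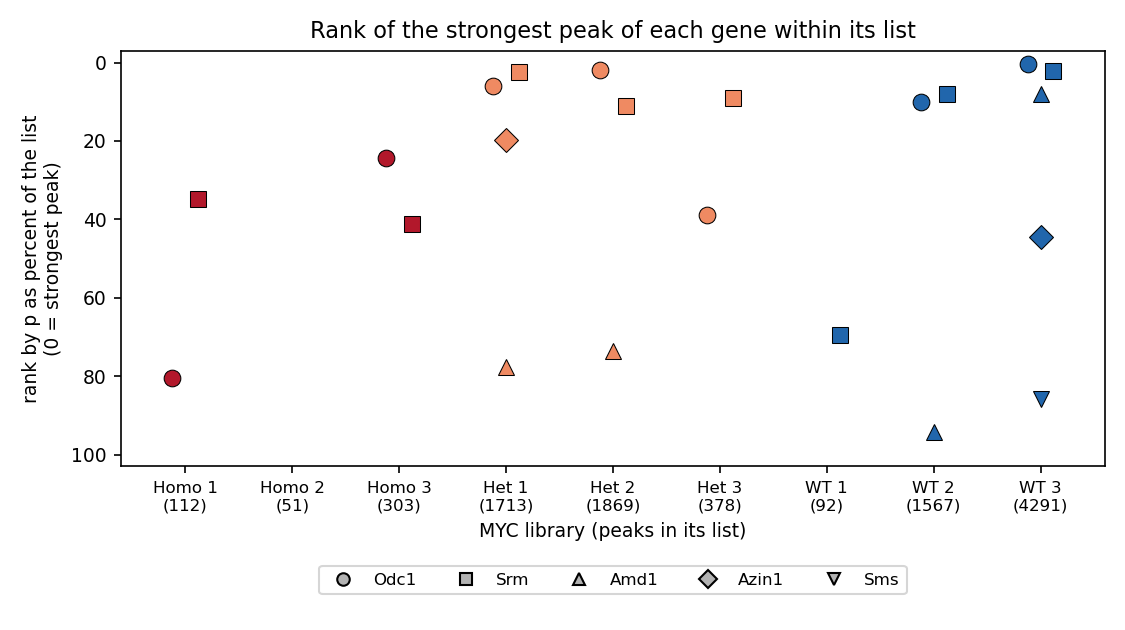
Rank by p of the strongest peak of each gene as a percentage of the peaks in that library's list, with 0 at the top for the strongest peak. Symbols give the gene and colours the genotype, and a gene without a listed peak has no symbol. Odc1 and Srm lie in the top 11.0% of each of the 4 longest lists, whereas Amd1 lies in the lower part of its lists except in WT replicate 3. In the shorter lists Odc1 and Srm lie anywhere between 8.99% and 80.4%.

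Of 26 further genes of the pathway, 10 had a peak in at least 1 library, as did 19.1% of all genes, and 6 in at least 2, as did 10.5% of all genes. Their median number of libraries with a peak was 0, as for all genes. Eif5a, which encodes the translation factor in which a lysine is turned into hypusine with spermidine as donor, had a peak in 2 of 3 Homo, 3 of 3 Het and 2 of 3 WT libraries, the same 7 as Odc1. These 7 leave out the shortest lists, Homo replicate 2 and WT replicate 1. Over all protein-coding genes, 26 other than Odc1 had peaks in exactly these libraries, Eif5a among them. The fold of the strongest Eif5a peak was 5.98 and 13.2 in Homo replicates 1 and 3, 20.0, 15.6 and 9.89 in Het, and 14.0 and 18.3 in WT replicates 2 and 3. Mat2a, which encodes an S-adenosylmethionine synthetase, had a peak in 6 libraries, 2 of each genotype, with strongest folds of 6.14 and 7.20 in Homo replicates 1 and 3, 6.97 and 14.8 in Het replicates 1 and 2, and 13.1 and 12.7 in WT replicates 2 and 3. These were the only pathway genes with a peak in at least 4 libraries, a limit that 4.05% of all genes met, and the only ones with a peak in any Homo library, as 1.43% of all genes had. By group, S-adenosylmethionine supply and methionine salvage had 6 of 9 genes with a peak in any library, transport 2 of 4 and hypusine formation 2 of 4. Ornithine supply had 0 of 4, other antizyme and inhibitor genes 0 of 2 and other catabolism 0 of 3. With 19.1% of all genes having a peak in any library, a count of 0 in groups this small is near the background.

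Peaks in the same 7 libraries as Odc1, which leave out the shortest lists, were listed at 26 other protein-coding genes. In all, 69 protein-coding genes had a peak in at least 7 libraries. The nearest to it in rank were Dph6, Rpl10a, Ran, and the neighbours Lrsam1 and Rpl12, with a mean difference in percentile rank of 4.01, 6.91, 7.84, 8.85 and 8.85 over the 7 shared libraries. Srm shared its 8 libraries with 8 other genes, and the nearest were the neighbours D17H6S56E-5 and Vars (10.5 for both), the neighbours Ccdc146 and Fam185a (11.4 for both) and Xpot (14.1). By the 1 kb rule a peak near adjoining genes counts for each of them. Such neighbours with equal rank differences are therefore not separate examples, and the counts of 26 and 8 include them.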

How the data were processed

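Of the 18 samples, the 9 MYC libraries had files and the 9 input libraries are not analysed here on their own. Per the submitters' processing notes, the tools were MACS2 2.0.10.20131216, HOMER, Picard and Bowtie2 2.2.3, with mm10 as build; no source used here gives the peak threshold. The deposited lists, 1 per library, give the authors' fold ratio over background, −log10 p and −log10 q, a whole-number score, and the summit offset. Nothing in the labels names separate animals, so p-values measure the spread between these libraries, which may be technical.

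Fold and p of each peak were solved together for whole summit reads and local background, which gave a single solution for 99.7% of 10376 peaks and for every peak reported; the solution was tested on simulated data. Mean coverage of a library was its lowest solved background, and the shortest peak was taken as the fragment length. Intervals cover counting error only. RefSeq (GRCm38.p6) gave the gene spans. Genotypes were compared by the share of libraries with a peak, in two-sided exact permutation tests with Benjamini-Hochberg adjustment over all protein-coding genes (Python 3.11.15, scipy 1.17.1). The members and lists were chosen with earlier results of these data known. The text names all members, pathway genes with a peak in at least 4 libraries, and the 5 genes most like Odc1 and like Srm by libraries shared and then by rank; Paox and Agmat were chosen after their values were seen. Alternatives covered peak limits, distances, overlap, depth, each library left out and the replicate number as a block. Motif CACGCG was added after the data were seen, as was leaving out 2 libraries together.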

Additional observations from a re-analysis of the deposited data

How the results depend on the processing

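The number of genes with a peak in any library, 5 of 8, was 4 at a −log10 p of at least 10, 4 after thinning to the shallowest input with that limit, and 4 without WT replicate 3, the library with the only Sms peak. It was 5 under the other settings. Leaving out WT replicate 1 and Homo replicate 2 together, a choice made after the data were seen, removes every library without an Odc1 or Srm peak, so it makes their differences 0 by construction. For Odc1, the difference between Homo and WT in the share of libraries with a peak was 0 percentage points. It ranged from -33.3 to 33.3 when single libraries were left out. It was -33.3 with a fold of at least 5 and after thinning, each of which removed the peak of Homo replicate 1. The Odc1 difference between Homo and Het, -33.3, was -66.7 under both of those settings and ranged from -50 to 0 with single libraries left out. The difference between Het and WT, 33.3, ranged from 0 to 50. For Srm, Homo minus WT was -33.3, which was 0 without Homo replicate 2 and -50 without Homo replicate 1 or 3. Over all settings the exact permutation p for both genes stayed between 0.4 and 1. With the replicate number as a block, the difference of Homo from WT was 0 for Odc1 and -33.3 for Srm (exact permutation p = 1 for both, smallest possible 0.25). For libraries with the same number, the correlation of their deviations from the genotype means over 4190 genes ran from -0.252 to 0.256. Pairs with different numbers were not compared and the lists differed widely in length. These values therefore cannot tell whether libraries with the same number shared a batch. The Sms peak rested on 23 reads, the fewest of any peak at these genes.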

Other observations

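Paox, a polyamine oxidase gene, and Agmat, the agmatinase gene, had no peak by the 1 kb rule but had summits slightly further away in the same 4 libraries, Het replicates 1 and 2 and WT replicates 2 and 3. Summits near Paox lay 3347 to 3400 bp beyond its end with folds of 5.46 to 13.8, and by the same rule they were assigned to the neighbouring gene Mtg1. Summits near Agmat lay 4653 to 4717 bp away with folds of 4.89 to 9.42 and were assigned to no protein-coding gene.

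The share of genes with a peak on chromosome X, where Sms and Sat1 lie, was below the autosomal share in the lists long enough to compare. Of 966 protein-coding X genes, 1, 0 and 1 had a peak in Homo replicates 1 to 3, 8, 7 and 1 in Het replicates 1 to 3, and 0, 8 and 27 in WT replicates 1 to 3. As a share, 0.828% and 0.725% of X genes had a peak in Het replicates 1 and 2, against 7.84% and 8.49% of autosomal genes, and 0.828% in WT replicate 2, against 7.01%. The shortest lists hold too few genes to show such a difference: Homo replicate 2 had 35 autosomal genes with a peak and WT replicate 1 had 52. The cause was not tested.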
